A study of Mus musculus with 17 samples.

Results

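Glycolysis is the cytosolic route from glucose to pyruvate and lactate, and mouse embryonic stem (ES) cells are known to rely on it. Hypoxia-inducible factor 1 (HIF1) is a transcription factor made of an oxygen-labile alpha subunit, encoded by Hif1a, and a stable beta subunit. Prolyl hydroxylases mark the alpha subunit for destruction when oxygen is present, and stabilised HIF raises genes of glucose uptake, glycolysis, mitophagy and vessel growth by binding a short DNA core, the HIF response element. The 36 genes described here were taken from a list of symbols, with transcripts summed per symbol. They are 20 glycolytic enzymes and transporters and 16 HIF genes, which are Hif1a and 15 known HIF targets. All 36 were found among the 53588 gene symbols of the series, and all 36 had enough counts to be tested.

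The series is RNA-seq of 5 mouse ES cell lines built on MC1 cells (129S6/SvEvTac), each with the open reading frame of 1 forkhead transcription factor, tagged with His6-FLAG, placed with a puromycin resistance gene in the Rosa26 locus and switched off by doxycycline (Dox). The lines are iFoxA1, iFoxC1, iFoxG1, iFoxL2 and iFoxP3. Cells at 24 h had Dox washed off at 3 h intervals and were grown in differentiation medium with 10% serum. Cells at 0 h were in ES medium with 15% serum, 1000 U/ml leukemia inhibitory factor (LIF), 0.2 µg/ml Dox and puromycin. At 24 h there were 3 libraries of iFoxA1 and 2 of each other line, 11 in all. At 0 h there were 2 of iFoxA1 and 1 of each other line, 6 in all. Every line analysed here carries a transgene, so induction of a factor, loss of LIF and the change of serum cannot be told apart in any line. Whether replicates came from separate cultures is not given in the labels, so p-values measure only the spread between these libraries.

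Of the 17 libraries, 12 held 17666100 to 22156700 estimated counts, to the nearest 100, and are called the first set. The other 5, which are iFoxA1 24 h replicate 3 and 24 h replicate 2 of the other lines, held 32942500 to 37177200 estimated counts and are called the second set. No second-set library is at 0 h. The paired iFoxA1 first-set libraries were the closest replicates, with a chi-square per degree of freedom over genes of 3.31 at 24 h and 2.79 at 0 h, against 78.6 to 206 for every pair of first-set and second-set libraries. In 2 second-set libraries the transgene was low for its line. Foxa1 had 76.8 CPM in iFoxA1 24 h replicate 3, against 236.5 and 252.2 CPM in the first-set iFoxA1 libraries at 24 h and 1.87 and 3.05 CPM at 0 h. Foxl2 had 11.5 CPM in iFoxL2 24 h replicate 2, against 149.3 CPM in replicate 1 and 1.14 CPM at 0 h. CPM are counts scaled to each library's total after TMM adjustment. These 2 libraries, called the low-transgene libraries below, also stood apart for the glycolysis and HIF genes. Gene-level tests of the members are therefore also given without them. The other gene lists were tested in all 17 libraries only. Leaving these 2 libraries out narrows the members' spread by selection, and calls from those fits carry that limit. Whether induction was weaker or samples were exchanged in these libraries was not tested, and each 24 h value that includes them carries that limit.

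The HIF response element has the core ACGTG or GCGTG, and its letters were looked up on both strands in RefSeq promoter windows (GRCm38.p6, 250 bases before to 50 after each start). At least 1 promoter held the core in 31 of the 33 members in that table, 17 glycolysis genes and 14 HIF genes. The core was present for 46.7% of all genes in the table. ACGTG alone was found in 25 of 33 members and in 21.8% of all genes. ACGTG also sits inside the E-box CACGTG, which other factors bind. A match is only a match of letters. Slc2a3, Bnip3l and Ndrg1 had no entry. For Vegfa the core was found only in the window of a start inside the gene, and the window at its first start held none. The stretches below are shown for members on which the results turn. Each runs 5′ to 3′ on the strand of the gene, upstream of the RefSeq start of its window. It spans the first to the last core with 15 bases on either side where the window allows. By the gene annotation used, those of Gapdh, Ldha, Slc16a3, Ankrd37, Hif1a and Kdm3a lie inside the gene. That of Slc2a1 crosses the first base of the gene. Capitals mark the core, which reads CACGT or CACGC where it lies on the opposite strand.
Slc2a1 (chr4:119108669-119108728, plus strand): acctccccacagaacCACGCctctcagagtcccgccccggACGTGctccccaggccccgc
Gapdh (chr6:125165798-125165842, minus strand): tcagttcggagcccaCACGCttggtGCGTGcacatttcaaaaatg
Pgk1 (chrX:106186935-106186988, plus strand): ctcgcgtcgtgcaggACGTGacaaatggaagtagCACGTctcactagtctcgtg
Ldha (chr7:46845644-46845789, plus strand): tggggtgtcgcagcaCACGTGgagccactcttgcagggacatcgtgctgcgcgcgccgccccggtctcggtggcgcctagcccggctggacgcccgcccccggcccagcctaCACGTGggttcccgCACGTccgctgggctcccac
Slc16a3 (chr11:120949025-120949066, plus strand): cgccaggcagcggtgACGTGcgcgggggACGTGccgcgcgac
Bnip3 (chr7:138909522-138909638, minus strand): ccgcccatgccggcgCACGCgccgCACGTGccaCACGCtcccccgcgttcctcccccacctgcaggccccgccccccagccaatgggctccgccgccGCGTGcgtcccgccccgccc
Egln3 (chr12:54204084-54204118, minus strand): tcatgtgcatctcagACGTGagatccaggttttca
Ankrd37 (chr8:45999851-46000100, minus strand): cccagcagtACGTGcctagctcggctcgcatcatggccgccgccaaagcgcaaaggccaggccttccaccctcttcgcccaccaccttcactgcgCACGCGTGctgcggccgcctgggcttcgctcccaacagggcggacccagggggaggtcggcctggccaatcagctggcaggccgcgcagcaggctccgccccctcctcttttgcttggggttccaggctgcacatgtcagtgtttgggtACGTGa
Hif1a (chr12:73907717-73907816, plus strand): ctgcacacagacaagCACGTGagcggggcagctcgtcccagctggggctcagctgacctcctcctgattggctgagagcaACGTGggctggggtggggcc
Ddit4 (chr10:59951866-59951972, minus strand): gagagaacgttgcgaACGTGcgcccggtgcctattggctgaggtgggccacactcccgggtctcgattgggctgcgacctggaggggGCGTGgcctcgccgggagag
Kdm3a (chr6:71632925-71632959, minus strand): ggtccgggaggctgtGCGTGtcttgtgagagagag
All of these stretches but those of Egln3 and Kdm3a held at least 2 cores. The Ldha stretch comes from 1 of the 2 Ldha promoters in the table. With each CACGTG counted on both strands, the Ldha and Bnip3 stretches each held 5. The Kdm3a stretch comes from 1 of 3 Kdm3a promoters and has a single core.

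Levels were compared between genes in TPM, which corrects for transcript length. Over 17 libraries the highest median was that of Gapdh (glyceraldehyde-3-phosphate dehydrogenase), 5206 TPM. Pkm (pyruvate kinase) followed with 1698 TPM, Eno1 (enolase) with 1432 TPM, Ldha (lactate dehydrogenase A) with 1211 TPM and Aldoa (aldolase A) with 1152 TPM. The HIF genes were lower, from a median of 189.3 TPM for Fam162a to 0.807 TPM for Car9, the carbonic anhydrase often used as a HIF readout. Among the isozymes, Aldoa held 97.1 to 99.6% of the summed aldolase TPM over the libraries, and Ldha held 82.2 to 96.1% of the summed Ldha and Ldhb TPM. Hk2 held 64.2 to 83.6% of the hexokinase TPM of Hk1 and Hk2. Eno1b, a near-identical copy, held 36.5 to 44.0% of the enolase TPM, so reads may be split between it and Eno1 and the Eno1 values are uncertain.

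Shares within phosphofructokinase, lactate transport and HIF alpha are given by time. Pfkp had a median share of 27.2% of phosphofructokinase TPM at 24 h and 53.9% at 0 h, and Pfkl had 52.1% at 24 h and 33.1% at 0 h. Slc16a3, the lactate exporter MCT4, had a median share of 77.8% at 24 h and 44.6% at 0 h of its summed TPM with Slc16a1, the transporter MCT1. Hif1a had a median share of 72.1% of the HIF alpha TPM at 24 h and 85.2% at 0 h, with Epas1 (HIF2 alpha) at 13.9 to 29.6 TPM in 24 h libraries and 3.43 to 8.37 TPM in 0 h libraries. These shares are descriptions and were not tested.

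**Figure D1:**
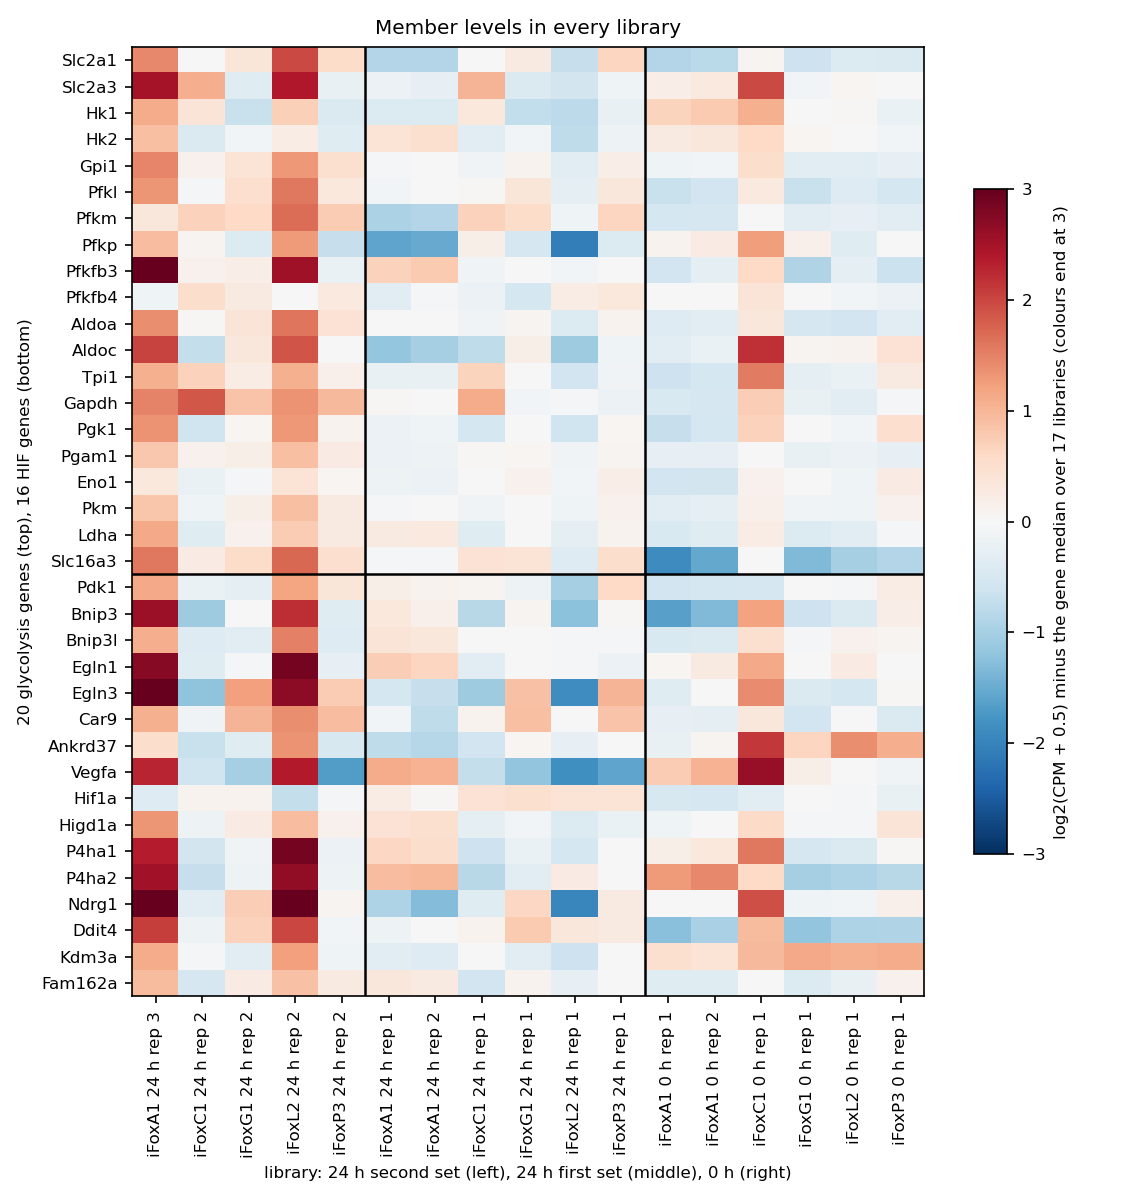
Heat map of the 36 members (rows, glycolysis genes above the line and HIF genes below) in 17 libraries (columns, 24 h second set, 24 h first set and 0 h from left to right). Colour gives log2(CPM + 0.5) minus the gene's median over the 17 libraries. iFoxA1 24 h replicate 3, iFoxL2 24 h replicate 2 and the iFoxC1 0 h library hold the strongest red.

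On average over the 5 lines, 4 of the 36 members changed between 24 h and 0 h. Slc16a3 and Ddit4 rose, and Ankrd37 and Kdm3a fell. By group, 1 of 20 glycolysis genes rose and none fell, and 1 of 16 HIF genes rose and 2 fell. With the same test (edgeR quasi-likelihood, Benjamini-Hochberg adjusted p under 0.05 over 19796 genes), 37.8% of all genes were called, 21.7% higher and 16.1% lower at 24 h. The members' share of calls, 11.1%, was thus below that of all genes. Their median log2 fold change was 0.35, against 0.04 over all genes tested.

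Slc16a3 had 114.0, 202.6 and 495.6 CPM as lowest, median and highest of the 11 libraries at 24 h, against 39.9, 67.0 and 149.3 CPM in the 6 at 0 h. The groups overlapped at 1 library, iFoxC1 0 h, which at 149.3 CPM was above 3 libraries at 24 h, while the next highest 0 h library had 81.2 CPM. The average log2 fold change was 1.60 ± 0.38 (SE), adjusted p = 0.00874. It was 1.17 ± 0.07 without the 2 low-transgene libraries and 1.25 ± 0.19 in the first set alone.

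Ddit4 encodes REDD1, a stress-induced brake on the kinase mTORC1. It had 60.6, 82.4 and 288.5 CPM at 24 h, against 28.2, 35.0 and 130.6 CPM at 0 h as lowest, median and highest. The highest 0 h value was again iFoxC1, and the 5 other 0 h libraries ended at 36.4 CPM. The change was 1.30 ± 0.40, adjusted p = 0.0300. It was 0.86 ± 0.08 without the 2 low-transgene libraries. With the library set as a term it missed the threshold at 0.90 ± 0.37, adjusted p = 0.0755. Leaving out any one of 5 libraries also ended this call, iFoxA1 0 h replicate 1, iFoxG1 0 h, iFoxL2 0 h, iFoxC1 24 h replicate 1 and iFoxP3 24 h replicate 1, with adjusted p of 0.0501 to 0.101.

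Ankrd37, an ankyrin repeat gene with a well-known HIF element, fell by 1.21 ± 0.31 on the log2 scale, adjusted p = 0.0137. It had 2.10, 3.14 and 11.6 CPM at 24 h, against 3.54, 8.23 and 19.96 CPM at 0 h. The highest 24 h value was that of iFoxL2 replicate 2 and the highest 0 h value that of iFoxC1. Without the iFoxC1 0 h library the average over the 4 other lines was -0.78, adjusted p = 0.117.

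Kdm3a, a histone H3 lysine demethylase, fell by 0.86 ± 0.30 on the log2 scale, adjusted p = 0.0470. It had 83.3, 118.0 and 303.2 CPM at 24 h, against 171.9, 263.0 and 286.3 CPM at 0 h. In the 9 libraries at 24 h other than iFoxA1 replicate 3 (278.3 CPM) and iFoxL2 replicate 2 (303.2 CPM) it stayed at 129.2 CPM or less, below every 0 h library. Without those 2 libraries the change was -1.23 ± 0.04. The call in the 17 libraries was a close one, and 13 of 17 fits that each left out 1 library did not pass, with adjusted p of 0.0620 to 0.133. It passed without iFoxL2 0 h, iFoxL2 24 h replicate 1, iFoxL2 24 h replicate 2 and iFoxA1 24 h replicate 3.

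**Figure D2:**
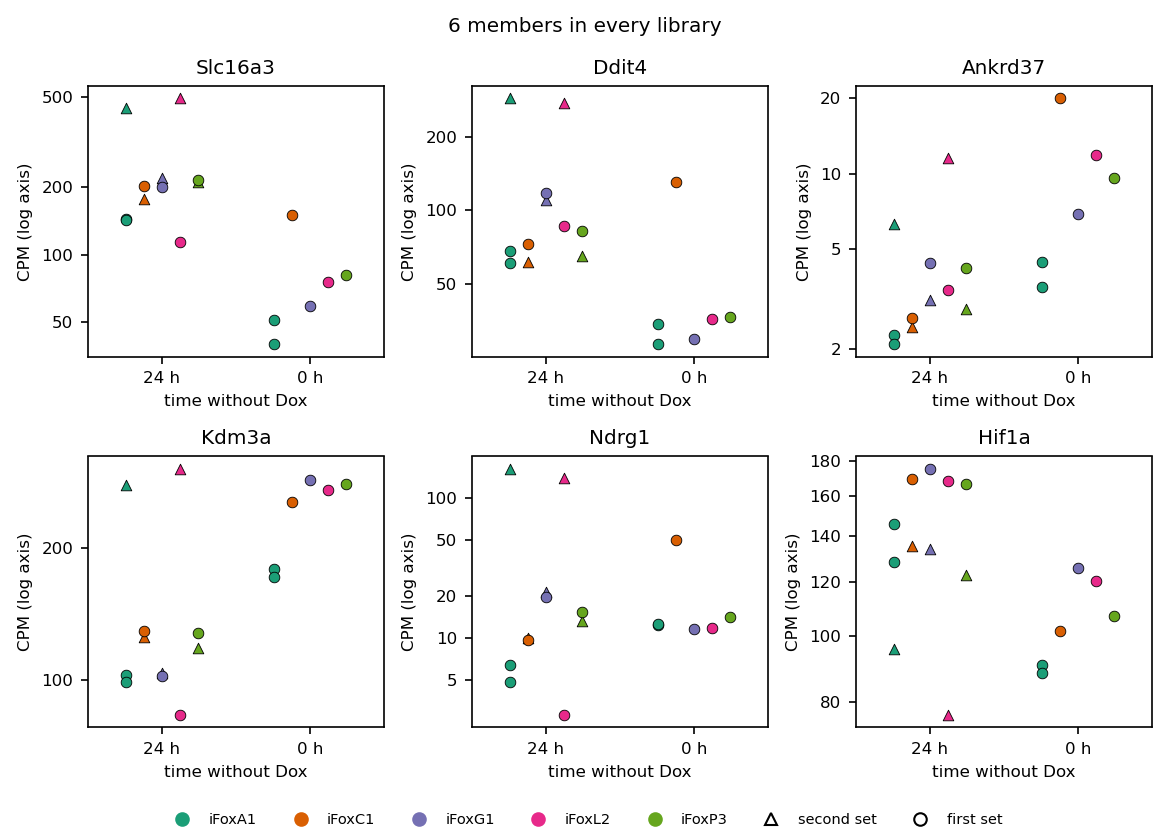
CPM on a log axis of 6 members in each library at 24 h (left) and 0 h (right), coloured by line, with triangles for second-set libraries and circles for first-set libraries. iFoxA1 24 h replicate 3 and iFoxL2 24 h replicate 2 stand above the other 24 h libraries for all but Hif1a, for which they are lowest at 95.7 and 76.6 CPM.

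The 32 other members did not pass in the full set of libraries. Several sat near the threshold, such as Pfkm and Pfkl, muscle-type and liver-type phosphofructokinase, with 0.82 ± 0.29 and 0.84 ± 0.31 and adjusted p of 0.0514 and 0.0589. Car9 had 1.28 ± 0.49, adjusted p = 0.0650. Gapdh had 0.87 ± 0.35, adjusted p = 0.0765. Others had wide errors. Ndrg1, a stress-response gene, had 0.66 ± 0.89, and Egln3, a prolyl hydroxylase that HIF itself raises, had 0.81 ± 0.75. No member had all 11 libraries at 24 h above all 6 at 0 h, or all below, while 4.80% and 3.90% of all genes did.

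Without iFoxA1 24 h replicate 3 and iFoxL2 24 h replicate 2, 11 members were higher and 13 lower at 24 h. Of all genes, 28.4% were higher and 24.3% lower in that fit, which kept 15 libraries and 5 residual degrees of freedom. Single iFoxL2 libraries then stood for each of its times and were assumed to vary like the others. The 4 members named above kept their direction and passed. Glycolysis genes split, 8 higher and 6 lower. Of the uptake and upper steps, Slc2a1 (glucose transporter GLUT1, 0.32), Pfkl (0.47), Pfkm (0.48), Pfkfb3 (which makes the activator of phosphofructokinase, 0.49) and Aldoa (0.31) were higher on the log2 scale. Slc2a3 (GLUT3, -0.50), Hk1 (-0.70) and Hk2 (-0.39), both hexokinases, Pfkp (platelet-type phosphofructokinase, -1.15) and Aldoc (aldolase C, -1.09) were lower. Of the lower steps, Pgk1 (phosphoglycerate kinase, -0.34) was lower, and Pgam1 (phosphoglycerate mutase, 0.20) and Ldha (0.17) were higher.

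HIF genes also split in that fit, with 3 higher and 7 lower. Hif1a (0.49), Car9 (0.79) and Ddit4 were higher. The secreted growth factor Vegfa (-1.62), Ndrg1 (-0.94), Egln3 (-0.43), Egln1 (-0.29), the collagen prolyl hydroxylase subunit P4ha1 (-0.34), Ankrd37 (-1.58) and Kdm3a were lower. Slc2a3, Pgk1, Egln1, Egln3, P4ha1 and Ndrg1 had an average of the opposite sign when all 17 libraries were used. In the first set alone, fitted with line and time (6 residual degrees of freedom), 5 members were higher and 7 lower, against 18.0% and 18.1% of all genes. The higher ones were Pfkl, Gapdh, Slc16a3, Hif1a and Ddit4. The lower ones were Slc2a3, Hk1, Pfkp, Aldoc, Ankrd37, Vegfa and Kdm3a.

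**Figure D3:**
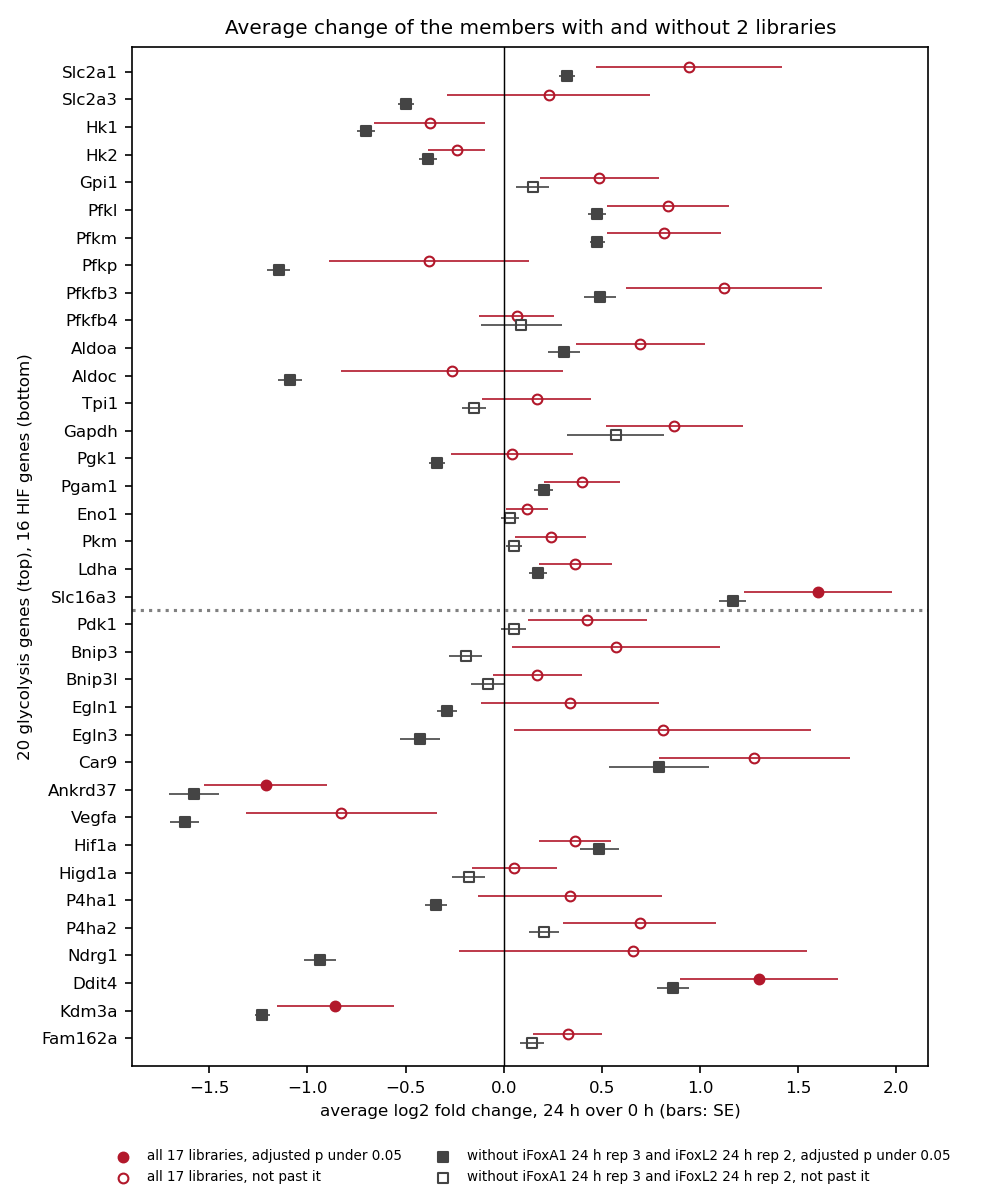
Average log2 fold change of 24 h over 0 h for each member with its SE, from all 17 libraries (red circles) and without iFoxA1 24 h replicate 3 and iFoxL2 24 h replicate 2 (grey squares). Filled symbols passed an adjusted p of 0.05, which 4 red and 24 grey symbols did.

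The first-set libraries were also compared line by line as a description. Slc16a3, Pgam1 and Hif1a were above 0 h in each of the 5 lines, and Slc2a3, Hk1, Pfkp, Ankrd37 and Kdm3a were below 0 h in each. Over all genes, 17.9% were above and 17.5% below in each line. The members' median log2 ratio was 0.30 for iFoxA1, -0.73 for iFoxC1, 0.28 for iFoxG1, -0.13 for iFoxL2 and -0.02 for iFoxP3. In the 4 lines other than iFoxA1 it sets 1 library against 1. The iFoxC1 0 h library was the highest at 0 h for 30 of 36 members, against 25.9% of all genes. The value of that line and its lone 0 h library cannot be told apart.

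The 2 low-transgene libraries were then set against the rest with no test, because they were chosen with results known. Both were above all 15 other libraries for 24 of 36 members, 12 glycolysis genes and 12 HIF genes, while 8.47% of all genes met this. Both were above the 9 other 24 h libraries for 31 members, against 13.0% of all genes. The exceptions were Hk2, Pfkm, Pfkfb4, Gapdh and Hif1a. Both were at least 2-fold over the first-set 24 h libraries of their own line for 25 members, 14 glycolysis genes and 11 HIF genes, against 4.03% of all genes.

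Among the transporters, Slc2a1 had 1092 and 1589 CPM in iFoxA1 24 h replicate 3 and iFoxL2 24 h replicate 2, against 216.6 to 627.8 CPM in the 9 other 24 h libraries. Slc2a3 had 3464 and 3228 CPM, against 414.4 to 1290 CPM. Slc16a3 had 447.2 and 495.6 CPM, against 114.0 to 218.8 CPM. The 2 libraries did not overlap the 9 others for any of these 3 genes, which are among the 31 such members (13.0% of all genes).

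Among the enzymes, Pfkp had 420.7 and 538.3 CPM, against 52.0 to 250.8 CPM in the 9 other 24 h libraries, and Aldoc had 56.4 and 51.4 CPM, against 5.75 to 17.1 CPM. Pgk1 had 2277 and 2204 CPM, against 593.6 to 969.3 CPM. The abundant Pkm had 5715 and 5957 CPM, against 2904 to 3822 CPM. The ratio to the line's own first-set 24 h libraries was smallest among glycolysis genes for Pfkfb4, 1.05-fold in iFoxA1 and 0.873-fold in iFoxL2. Hk2 had 1.38-fold in iFoxA1 and 1.98-fold in iFoxL2, and Eno1 had 1.390-fold and 1.399-fold.

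The highest ratios were those of HIF genes. Ndrg1 had 160.5 and 138.7 CPM, against 2.85 to 21.5 CPM in the 9 other 24 h libraries, which was 26.5-fold and 41.6-fold over the first-set libraries of the line. Egln3 had 123.8 and 91.8 CPM, against 3.46 to 33.5 CPM, or 13.2-fold and 23.3-fold. Bnip3, a mitophagy receptor, had 632.4 and 495.7 CPM, against 44.7 to 130.7 CPM. Pdk1, the kinase that shuts pyruvate dehydrogenase, had 476.5 and 493.9 CPM, against 108.1 to 330.5 CPM, and Bnip3l, a related mitophagy receptor, had 274.0 and 368.1 CPM, against 98.0 to 169.0 CPM. Egln1, the main HIF prolyl hydroxylase, had 149.8 and 165.2 CPM, against 17.2 to 37.5 CPM. P4ha1 had 121.5 and 174.0 CPM, against 15.0 to 36.2 CPM. These 7 genes did not overlap between the 2 libraries and the 9 others. They are among the 31 members with both libraries above the 9 others, against 13.0% of all genes.

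Vegfa had 64.0 and 68.0 CPM in these libraries, against 3.20 to 28.1 CPM in the 9 others. Its ratio to the line's first-set libraries differed between the lines, 2.31-fold in iFoxA1 and 18.5-fold in iFoxL2. Hif1a alone went the other way, with 95.7 and 76.6 CPM, against 122.8 to 175.5 CPM in the 9 other 24 h libraries. It was the single member with both below the 9 others, which 10.5% of all genes were. In these 2 libraries Hif1a was thus low for 24 h while most HIF targets listed were high. At 0 h Hif1a had 88.3 to 125.6 CPM. It was also lower in the second set than in the first set at 24 h in every other line.

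The second-set libraries of iFoxC1, iFoxG1 and iFoxP3 were not raised in this way. At least 2-fold over the line's first-set 24 h libraries were 25 members in iFoxA1 replicate 3 (6.77% of all genes), 32 in iFoxL2 replicate 2 (9.36%), none in iFoxC1 replicate 2 (1.64%), none in iFoxG1 replicate 2 (1.77%) and Gapdh alone in iFoxP3 replicate 2 (1.75%). The members' median log2 ratio was 1.46 in iFoxA1 and 1.82 in iFoxL2. It was -0.01 in iFoxC1, 0.12 in iFoxG1 and -0.09 in iFoxP3.

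**Figure D4:**
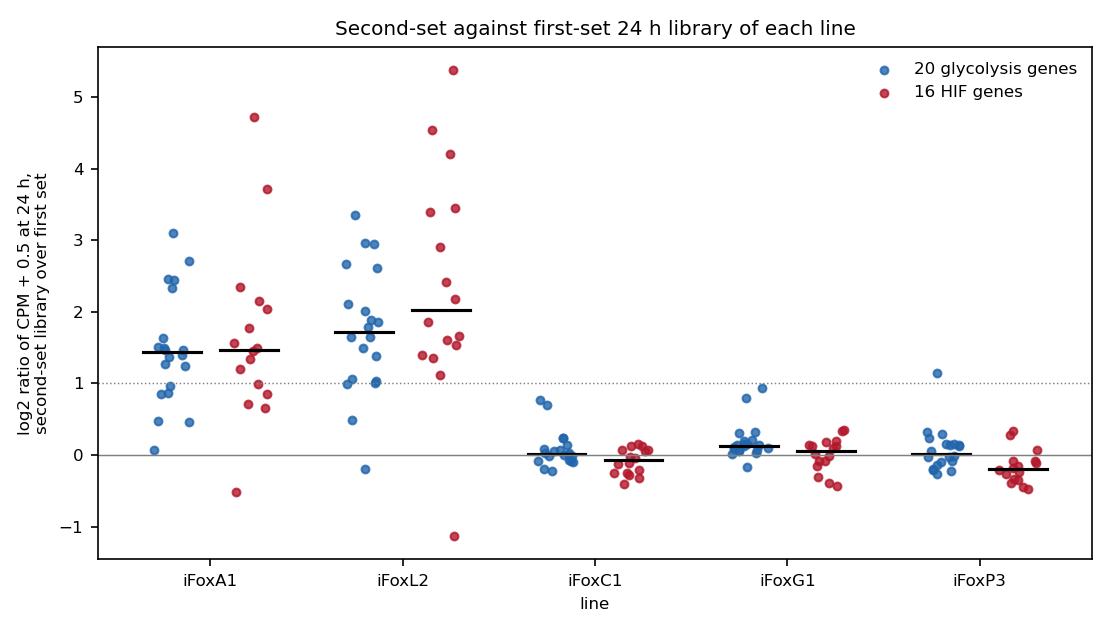
Log2 ratio of the second-set 24 h library over that line's own first-set libraries at 24 h, on CPM + 0.5, for the 20 glycolysis genes (blue) and 16 HIF genes (red), with black bars for medians. Most members of iFoxA1 and iFoxL2 lie above the dotted line at 1, while in iFoxC1, iFoxG1 and iFoxP3 a single gene, Gapdh in iFoxP3, does.

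Marker lists were read in the same libraries. The 16 ES cell markers summed to 6146 and 6311 CPM in iFoxA1 24 h replicate 3 and iFoxL2 24 h replicate 2, against 2560 to 3948 CPM in the 9 other 24 h libraries and 5414 to 5648 CPM at 0 h. The sum does not hold for each marker. Pou5f1 had 1236 and 1560 CPM in the 2 libraries, against 881.7 to 1192 CPM at 0 h. Nanog had 297.4 and 208.6 CPM, below the 578.6 to 1312.5 CPM at 0 h. Utf1 had 464.4 and 583.5 CPM, above the 76.9 to 207.9 CPM at 0 h. No ES marker was at 0. The 12 fibroblast markers summed to 24.9 and 9.03 CPM in the 2 libraries, within or at the end of the 9.03 to 31.9 CPM of all 24 h libraries, and to 7.44 to 37.9 CPM at 0 h, with Col3a1 at 0 in both libraries. The 13 mitochondrially encoded genes summed to 28871 and 21534 CPM in the 2 libraries. The sums were 17304 to 26432 CPM in the 9 other 24 h libraries and 25397 to 40828 CPM at 0 h. By mean log2 CPM the 2 libraries had 9.50 and 8.82, ranks 12 and 17 of the 17 libraries. The other second-set libraries had 8.96 to 9.15, against 9.50 to 10.16 in the first set at 24 h. On average 8 of the 13 fell, while 16.1% of all genes were lower at 24 h. The part of these, and of the transgene level, in the members' values was not tested. In bulk libraries, fewer cells with a message and less of it per cell cannot be told apart.

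The test of the second set over the first set at 24 h within lines called 9 members higher and 1 lower, against 12.7% and 13.6% of all genes. Of the glycolysis genes 7 of 20 were higher and none lower, and of the HIF genes 2 of 16 were higher and 1 lower. The members' median log2 difference was 0.76, against -0.01 over all genes. Gapdh led with 1.16 ± 0.10 (SE), adjusted p = 5.3e-05. It had 5864 to 11839 CPM in the 5 second-set libraries, against 2868 to 6977 CPM in the 6 first-set libraries at 24 h. In each of the 5 lines the second-set library was higher, by 1.70-fold in iFoxC1 to 2.78-fold in iFoxA1. Without the 2 low-transgene libraries the difference was 0.98 ± 0.05.

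The other glycolysis calls were smaller. Aldoa had 0.88 ± 0.24 and adjusted p = 0.0274. Gpi1, glucose-6-phosphate isomerase, had 0.85 ± 0.21 and adjusted p = 0.0188. Tpi1, triose-phosphate isomerase, had 0.72 ± 0.22 and adjusted p = 0.0372. Aldoa had 1360 to 4050 CPM in the second set, against 999.3 to 1434 CPM in the first set at 24 h. Gpi1 had 616.2 to 1543 CPM, against 442.9 to 643.1 CPM. Tpi1 had 572.0 to 1090 CPM, against 346.6 to 822.8 CPM, so the sets overlapped for all 3. The rest were Pgam1 (0.51), Pkm (0.47) and Ldha (0.47). Without the 2 low-transgene libraries the differences were 0.29 for Aldoa, 0.31 for Gpi1 and 0.19 for Tpi1, all still past the threshold. Leaving out iFoxA1 24 h replicate 3 alone ended every one of these calls but that of Gapdh. In TPM, Aldoa, Tpi1 and Pgam1 were lower in the second set of iFoxC1, iFoxG1 and iFoxP3. Aldoa had 920.1, 1192 and 1152 TPM there, against 1100, 1346 and 1379.5 TPM in the first set at 24 h. Tpi1 had 625, 449 and 399 TPM, against 671, 463 and 413 TPM. Gpi1 had 342.3, 416.5 and 425.7 TPM, against 290.0, 418.7 and 408.75 TPM. The set was not tested on TPM.

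Of the HIF genes, Higd1a, a mitochondrial survival factor, was higher in the second set by 0.62 ± 0.15, adjusted p = 0.0175. It had 49.6 to 138.9 CPM, against 41.3 to 77.3 CPM. Fam162a was higher by 0.46 ± 0.14, adjusted p = 0.0333. It had 45.4 to 125.7 CPM, against 43.5 to 81.8 CPM. Hif1a was lower by -0.56 ± 0.11, adjusted p = 0.00620. It had 76.6 to 135.3 CPM in the second set, against 128.0 to 175.5 CPM in the first set at 24 h, and was lower in the second set in each of the 5 lines. Without the 2 low-transgene libraries the value was -0.36 and passed. Leaving out iFoxA1 24 h replicate 3 alone ended the calls of Higd1a and Fam162a, and not that of Hif1a.

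At 0 h a single library, iFoxC1, stood apart for the members. It was the highest of the 6 libraries for 30 of 36 members, 19 glycolysis genes and 11 HIF genes, while 25.9% of all genes had their highest 0 h value there. It was at least 2-fold above the next library for 10 members, against 1.39% of all genes. Vegfa had 80.8 CPM in iFoxC1, against 11.9 to 26.8 CPM in the 5 other 0 h libraries. Bnip3 had 245.7 CPM, against 33.9 to 122.4 CPM, and Slc2a3 had 2408 CPM, against 577.6 to 742.6 CPM. Pfkp, Aldoc, Tpi1, Egln3, P4ha1, Ndrg1 and Ddit4 were the other 7. There is 1 library of iFoxC1 at 0 h, so its line and the library cannot be told apart.

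The test of differences among the lines at 0 h called none of the members, 2 at an unadjusted p under 0.05 (Tpi1 and Eno1), while 0.495% of all genes were called and 12.0% had an unadjusted p under 0.05. DESeq2 called Tpi1, adjusted p = 0.0299, and 6.24% of all genes. Without the 2 low-transgene libraries, neither of which is at 0 h, the same test called 27 members and 19.2% of all genes. Those libraries enter it only through the pooled spread.

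Within single lines few members were called. In iFoxA1, Slc16a3 rose by 2.43 ± 0.67, adjusted p = 0.0480, the single call among members, while 10.8% of all genes were called and 6.63% higher. It had 143.0, 143.9 and 447.2 CPM at 24 h, against 39.9 and 51.2 CPM at 0 h, with no overlap. In iFoxC1, Ankrd37 fell by 2.96 ± 0.73 on the log2 scale, adjusted p = 0.0349, the single call, while 9.73% of all genes were called and 3.48% lower. It had 2.45 and 2.68 CPM at 24 h, against 19.96 CPM in the lone 0 h library. The Slc16a3 call was lost in 11 of 17 fits that each left out 1 library and the Ankrd37 call in 7 of 16, with values of 1.65 to 2.70 for Slc16a3, the lowest without iFoxA1 24 h replicate 3, and -3.03 to -2.95 for Ankrd37.

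No member was called in iFoxG1, iFoxL2 or iFoxP3, against 5.64%, 4.23% and 6.05% of all genes. At an unadjusted p under 0.05 there were 9 members in iFoxA1 (24.8% of all genes), 4 in iFoxC1 (25.5%), 2 in iFoxL2 (20.3%) and none for iFoxG1 (21.2%) or iFoxP3 (22.2%). DESeq2 called 8 for iFoxA1 (14.6% of all genes), 3 for iFoxC1 (15.3%), 2 for iFoxL2 (9.38%) and none for iFoxG1 (10.4%) or iFoxP3 (12.0%). Without the 2 low-transgene libraries the calls were 24 for iFoxA1 (26.2% of all genes), 25 for iFoxC1 (32.2%), 20 for iFoxG1 (25.3%), 16 for iFoxL2 (19.9%) and 17 for iFoxP3 (27.6%). In iFoxC1, 24 of these 25 were lower at 24 h, as were 14.7% of all genes. In iFoxA1 16 of 24 were higher (13.5% of all genes higher), in iFoxG1 15 of 20 (13.9%), in iFoxP3 11 of 17 (15.2%) and in iFoxL2 3 of 16 (10.2%). In the first set alone the calls were 30 for iFoxA1 (46.0% of all genes), 32 for iFoxC1 (44.8%), 27 for iFoxG1 (40.0%), and 22 each for iFoxL2 (41.7%) and iFoxP3 (42.7%). That fit set 1 library against 1 in the 4 lines other than iFoxA1, and its 2 residual degrees of freedom came from the iFoxA1 pairs alone. In every fit the iFoxC1 changes rest on its lone 0 h library, the highest at 0 h for 30 of 36 members (25.9% of all genes).

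Whether the 5 changes differed among the lines was tested directly. None of the 36 members was called, none had an unadjusted p under 0.05, while 1.00% of all genes were called and 14.1% had an unadjusted p under 0.05. DESeq2 called Vegfa, adjusted p = 0.0474, and 8.20% of all genes. Without the 2 low-transgene libraries 27 members were called, against 20.8% of all genes. In the first set alone, on 2 residual degrees of freedom, it was 33 members and 49.1% of all genes.

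The 4 members with the smallest adjusted p in that test were Bnip3, Vegfa, P4ha2 and Ddit4. None of them passed. The iFoxC1 changes given here and in the next paragraphs all rest on its lone 0 h library. That library was the highest at 0 h for 30 of 36 members, against 25.9% of all genes. Bnip3 (adjusted p = 0.397) had 50.2 and 59.6 CPM at 24 h in iFoxC1, against 245.7 CPM at 0 h, and 117.1, 130.7 and 632.4 CPM at 24 h in iFoxA1, against 33.9 and 42.1 CPM at 0 h. Vegfa (adjusted p = 0.429) had 7.54 and 8.26 CPM at 24 h in iFoxC1, against 80.8 CPM at 0 h, and 26.8, 28.1 and 64.0 CPM at 24 h in iFoxA1, against 21.9 and 26.8 CPM at 0 h. Both were thus lower at 24 h in iFoxC1, while in iFoxA1 Bnip3 was higher.

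Ddit4 (adjusted p = 0.475) had 61.1 and 73.0 CPM at 24 h in iFoxC1, against 130.6 CPM at 0 h, and 60.6, 68.0 and 288.5 CPM at 24 h in iFoxA1, against 28.2 and 34.3 CPM at 0 h. It was lower at 24 h in iFoxC1 and higher in iFoxA1. At 24 h the iFoxC1 values lay near the first-set iFoxA1 values of 60.6 and 68.0 CPM. The fall in iFoxC1 rests on its lone 0 h library, the only 0 h library above 36.4 CPM.

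P4ha2, the other collagen prolyl hydroxylase subunit listed (adjusted p = 0.434), had 9.66 and 53.6 CPM at 24 h in iFoxL2, against 4.06 CPM at 0 h, and 4.31 and 4.87 CPM at 24 h in iFoxC1, against 12.7 CPM at 0 h. Of the glycolysis genes, Ldha (adjusted p = 0.481) had 1681, 1699 and 3061 CPM at 24 h in iFoxA1, against 1002 and 1078 CPM at 0 h, and 1072 and 1076 CPM at 24 h in iFoxC1, against 1624 CPM at 0 h. Both genes were lower at 24 h in iFoxC1 and higher in the other line named. In iFoxA1, P4ha2 had 15.9, 16.6 and 49.1 CPM at 24 h, against 20.3 and 22.9 CPM at 0 h. Its values of 53.6 and 49.1 CPM are those of the low-transgene libraries.

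The next glycolysis genes in that order were Hk2, Eno1 and Pgk1. Hk2 (adjusted p = 0.524) had 196.3 and 208.9 CPM at 24 h in iFoxC1, against 404.9 CPM at 0 h, and 354.0, 368.3 and 497.8 CPM at 24 h in iFoxA1, against 320.9 and 338.2 CPM at 0 h. Pgk1 had 597.5 and 626.1 CPM at 24 h in iFoxC1, against 1455 CPM at 0 h. Eno1 stayed between 1396 and 2114 CPM at 24 h and between 1075 and 1898 CPM at 0 h over all lines. These values share the limit set by its copy Eno1b.

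Genes of the same pathways outside the 36 were counted from other lists. Of 41 further glucose genes tested, 5 rose and 12 fell on average. Tigar, a fructose bisphosphatase-like enzyme, had -1.46 ± 0.13. Mpc1, of the mitochondrial pyruvate carrier, had -0.92 ± 0.07. Ldhc had -1.04 ± 0.13 and Pdhx, of the pyruvate dehydrogenase complex, had -0.44 ± 0.06. Of 46 further HIF targets, 7 rose and 3 fell. Their mean log2 CPM was 5.08 in iFoxA1 24 h replicate 3 and 5.05 in iFoxL2 24 h replicate 2, against 3.43 to 4.10 in the 15 other libraries. These other lists were not tested without those 2 libraries. Igfbp3 had 1.97 ± 0.13, Cited2, a HIF feedback inhibitor, 1.14 ± 0.10, Ets1 2.79 ± 0.40 and Plin2 0.88 ± 0.15.

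Of 13 genes of the HIF machinery, 6 rose and 3 fell. Epas1 had 1.84 ± 0.13, adjusted p = 1.27e-05. Arnt2, a partner of the alpha subunits, had 1.60 ± 0.11, the coactivator Ep300 had 1.07 ± 0.08, and Cul2, of the ligase that removes HIF alpha, had -0.55 ± 0.07. Thus 41.5% of the further glucose genes, 21.7% of the further HIF targets and 69.2% of the machinery were called, against 37.8% of all genes. Of 18 genes of the integrated stress response, which also raises Ddit4, 4 rose and 6 fell.

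Pkm gives an M1 form, typical of muscle, and an M2 form, typical of growing cells, by use of 1 of 2 exons that exclude each other. In the annotation these lie at chr9:59675029-59675195 for M1 and chr9:59675568-59675734 for M2 (mm10, plus strand), each 167 bases. The M1 share of the TPM of both forms was 7.13 ± 3.69% at 24 h (SD, n = 11) and 9.58 ± 1.31% at 0 h (SD, n = 6), and the difference of -2.45 percentage points did not pass an exact permutation test (2-sided, p = 0.128). By library set, the share was 3.42 ± 0.31% in the second set (SD, n = 5), against 10.2 ± 1.401% in the first set at 24 h (SD, n = 6), and the lowest first-set library, at 7.23%, was above the highest second-set library, at 3.71%. In the first set alone, 24 h and 0 h gave p = 0.442 by the same exact test. The split of shared reads between the forms is an estimate by Salmon, and the M2 form was the larger in all 17 libraries.

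**Figure D5:**
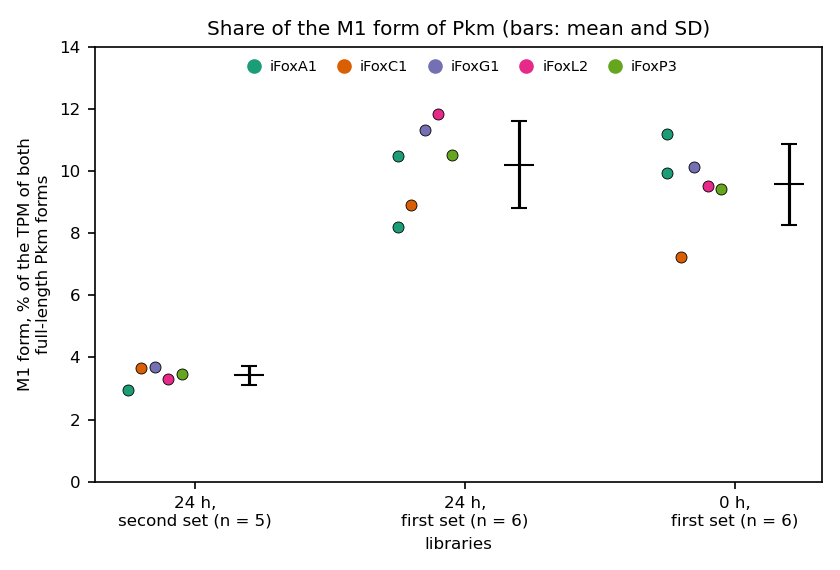
Share of the M1 form in percent of the TPM of both full-length Pkm forms, by library, for 24 h second set, 24 h first set and 0 h, coloured by line, with mean and SD beside the points. The 5 second-set libraries lie between 2.96 and 3.71%, below all 12 first-set libraries.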

How the data were processed

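RNA-seq reads of the 17 libraries were quantified per transcript by the authors with Salmon 1.4.0 on mm10, per the submitters' processing notes. Which annotation release they used is not stated. The deposited estimated counts per transcript were summed per gene symbol of GENCODE mouse M21 (137225 of 137271 transcripts matched, 46 left out) and rounded to whole numbers. The deposited TPM, which the authors obtained from Salmon per transcript length, were summed in the same way and served for levels between genes, isozyme shares and the Pkm forms.

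Counts were filtered with filterByExpr, scaled with TMM and fitted with edgeR 4.0.16 (R 4.3.3, quasi-likelihood, 10 groups of line and time, 7 residual degrees of freedom). Benjamini-Hochberg adjustment ran over all 19796 genes tested, at a threshold of 0.05. The fit was tested on simulated data. The library set was a term on top of the groups, with 6 residual degrees of freedom. SE are the absolute log2 fold change over the square root of F. Ratios of single libraries used CPM + 0.5. Alternatives were other size factors, no filter, DESeq2 1.42.0, limma 3.58.1 on log2(TPM + 1) and log2(TPM + 0.1), a replicate block, the library set as a term, subsets of libraries and each library left out. The submitters' processing notes also name DESeq2 1.30.1.

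The members, lists, tests and subsets were chosen with earlier results of these data known. Per-library values are given for up to 6 members of each of the 2 groups with the largest average change past the threshold and a mean of 5 CPM or more at either time, for up to 4 with the largest library-set difference past the threshold, for up to 4 with the smallest adjusted p among the 5 changes, and for the 2 low-transgene libraries. Other members were named after their values were seen. From each other list up to 4 genes with the smallest adjusted p are named. One gene is not reported here.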

Additional observations from a re-analysis of the deposited data

Results flagged for a closer look

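In 17 of the 36 members, the highest of the 6 libraries at 0 h lay further from the next one than Dixon's 95% critical value allows, and in all 17 that library was iFoxC1. The nominal rate is about 1 such result in 20 groups, and these members share the library, so they are not independent. The share of all genes flagged in this way was not computed. Of all genes, 25.9% had their highest 0 h value in iFoxC1, and 1.39% were at least 2-fold above the next library there. The values given are CPM of the iFoxC1 0 h library, each set against the next highest of the 5 other 0 h libraries. Of the transporters, Slc2a3 had 2408 CPM, against 742.6 CPM. Of the upper steps of glycolysis, Gpi1 had 815.4 CPM, against 535.2 CPM, Pfkl 343.6 CPM, against 214.9 CPM, and Pfkp 532.0 CPM, against 264.1 CPM. The regulators Pfkfb3 and Pfkfb4 had 27.2 CPM, against 14.8 CPM, and 3.79 CPM, against 2.81 CPM. Both aldolases stood apart, Aldoa with 1684 CPM, against 1052 CPM, and Aldoc with 63.8 CPM, against 18.5 CPM. Of the lower steps, Tpi1 had 1527 CPM, against 629.0 CPM, Gapdh 5413 CPM, against 3095 CPM, and Pgam1 921.0 CPM, against 809.3 CPM.

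Of the HIF genes, the prolyl hydroxylases Egln1 and Egln3 had 49.5 CPM, against 26.7 CPM, and 38.3 CPM, against 14.2 CPM. Vegfa had 80.8 CPM, against 26.8 CPM, and P4ha1 had 70.8 CPM, against 29.0 CPM. Ndrg1 had 49.6 CPM, against 14.1 CPM, and Ddit4 had 130.6 CPM, against 36.4 CPM. The gap of Ndrg1 was 0.932 of its whole range at 0 h and that of Ddit4 0.920.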

How the results depend on the processing

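In all 17 libraries, 2 members were higher and 2 lower on average at 24 h, 1 was called in iFoxA1, 1 in iFoxC1 and none in the other lines, none in the difference among the 5 changes or among lines at 0 h, and 9 were higher and 1 lower in the second set. With other size factors these counts stayed within 1.5 times. With no filter on low counts, 5 were higher on average, 3 were called in iFoxA1 and 14 were higher in the second set. With DESeq2, 8 were higher on average, 8 were called in iFoxA1, 3 in iFoxC1, 2 in iFoxL2, 1 in the difference among changes, 1 among lines at 0 h, and 19 were higher in the second set. With the library set as a term, 4 were lower on average, 5 were called in iFoxA1, 6 in iFoxC1 and 1 among lines at 0 h. With limma on log2(TPM + 1) and on log2(TPM + 0.1), 5 were higher on average. With 24 h libraries only, 4 were higher in the second set. In the first set alone, 5 were higher and 7 lower on average, and the calls were 30 for iFoxA1, 32 for iFoxC1, 27 for iFoxG1, 22 each for iFoxL2 and iFoxP3 and 33 in the difference among changes, those within lines resting on 2 residual degrees of freedom. Without iFoxA1 24 h replicate 3 and iFoxL2 24 h replicate 2, 11 were higher and 13 lower on average, the calls were 24 for iFoxA1, 25 for iFoxC1, 20 for iFoxG1, 16 for iFoxL2, 17 for iFoxP3, 27 in the difference among changes and 27 among lines at 0 h, and 5 were lower in the second set, a fit of the set that was added after seeing the data. Leaving out 1 library at a time gave 1 to 14 higher and 0 to 4 lower on average (14 without iFoxL2 24 h replicate 1), 0 to 7 in iFoxA1, 0 to 4 in iFoxC1, 0 to 3 in iFoxL2, 0 in iFoxG1 and iFoxP3, 0 to 1 in the difference among changes, 0 among lines at 0 h, and 1 to 13 higher and 1 lower in the second set. Where the lone 0 h library of a line was left out, the average ran over the 4 other lines. The cause of these moves was not tested.

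Reversed in sign on average without the 2 low-transgene libraries, the log2 value of Slc2a3 was -0.50 (-0.50 also in the first set alone), of Pgk1 -0.34, of Egln1 -0.29, of Egln3 -0.43, of P4ha1 -0.34 and of Ndrg1 -0.94. Without the iFoxC1 0 h library they were 0.52 for Slc2a3, 0.37 for Pgk1, 0.80 for Egln1, 1.68 for Egln3, 0.97 for P4ha1 and 1.405 for Ndrg1. In the second set, Eno1 (-0.15), Pdk1 (-0.20), Bnip3l (-0.32) and Ddit4 (-0.20) reversed without the 2 low-transgene libraries, and leaving out 1 library gave up to 0.19 for Eno1, 0.71 for Pdk1, 0.43 for Bnip3l and 1.03 for Ddit4. The Pkm M1 difference was -2.92 to -2.03 percentage points over fits that left out 1 library.

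The replicate numbers were not taken to pair the samples, because the labels give no shared batch and not every same-numbered pair deviated together. The correlation was over 0.1 in 16 of 20 same-numbered pairs (range -0.57 to 0.76) and in 8 of 28 others, and the 4 exceptions involve iFoxA1 24 h replicate 2, a first-set library. Pairs within a library set were all positive, so the deviations followed the set. Pairs across the sets were all negative, which adds nothing to this. With 2 libraries in a group, their deviations from its mean mirror each other, and each correlation recurs with the opposite sign. The counts of pairs thus repeat a few independent values. With the replicate block, 0 members were called in iFoxA1, 2 in iFoxC1, and 1 was higher and 0 lower in the second set. It ended the Slc16a3 call in iFoxA1 and, among others, the Hif1a call in the second set (-0.46, adjusted p = 0.476). Outside iFoxA1 the replicate number at 24 h is the same split as the library set. The block therefore takes up most of the set difference, and calls of the set lost with it cannot be read. Car9 had 0.215 to 2.70 CPM at 24 h and 0.308 to 1.04 CPM at 0 h, so its values rest on few counts.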
